A study of Gossypium hirsutum with 12 samples.

Results

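Root tips of cotton seedlings held for 48 h in dry vermiculite (WS48) were compared with root tips of well-watered seedlings of the same age (WW48), the temporal control. The comparison takes in 6 of the 12 RNA libraries of the series, those whose labels give 48 h, with 3 libraries in each group, and the remaining 6 are the same treatments at 24 h (WS24 and WW24). All seedlings were of the cultivar AU90810 and grew in the dark. WW48 roots grew at a vermiculite water potential of −0.02 MPa and were cut 12 mm from the tip, whereas WS48 roots grew at −1.0 MPa and were cut 6 mm from the tip, so that each sample held the whole elongation zone. Tips were pooled within a sample, and the replicates came from independent experiments according to the paper. Stressed roots elongated more slowly, and the paper used WW24 as a developmental control of about the same root length as WS48. Tip length differed with the treatment throughout, and WW48 roots were longer than WS48 roots. The part of tip length or of root development in any difference cannot be told apart from that of water stress. Nor can fewer cells of a type be told apart from less RNA per cell in such bulk samples.

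The primary root of a seedling that meets dry soil goes on elongating, at a lower rate, in a growth zone that shortens towards the apex. Known parts of that response include the hormone abscisic acid (ABA), which binds receptors of the PYR/PYL family and thereby releases protein kinases from type 2C protein phosphatases, and the build-up of osmolytes such as proline and hexoses, which hold water in the cells. Cell wall enzymes set how far the wall yields, and aquaporins carry the water that enters.

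Between 6433993 and 11142643 reads per library were counted in genes (WW48 replicate 2 had the fewest), and 51971 to 54029 genes had a read. Principal component analysis set the groups apart along its first axis (64.6% of the variance), with WW48 between −117 and −66.5 and WS48 between 57.9 and 97.7. WW48 replicate 2 lay farthest out in its group, at −117 against −66.5 and −68.0, and WS48 replicate 2 lay nearest to the other group, at 57.9 against 96.3 and 97.7. WW48 replicate 2 was the highest of the 6 libraries in 1796 of the 2628 decreased transcripts (68.3%), whereas WS48 replicates 1, 2 and 3 were the highest in 661, 280 and 456 of the 1397 increased transcripts. Without WW48 replicate 2, 1151 transcripts increased and 1581 decreased, of which 1010 and 1517 were also called with it.

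In WS48/WW48, 1397 transcripts (3.18% of the 43938 genes tested) increased and 2628 (5.98%) decreased, together 9.16%. These calls needed a p from edgeR's quasi-likelihood test, adjusted by Benjamini and Hochberg over all genes, no higher than 0.05, as well as a fitted log2 change of 1 or more in either direction. The median log2 fold change was 1.57 among the increased and −1.86 among the decreased transcripts, against −0.007 over all genes. A change of at least 8-fold was reached by 179 increased and 478 decreased transcripts, counting those with no read in a group at their lower bound. The increased transcripts held 1.32% to 1.52% of the scaled counts in the WW48 libraries and 3.72% to 4.31% in the WS48 libraries, whereas the decreased ones fell from 8.22% to 12.3% to 2.69% to 3.07%. The WW48 and WS48 libraries did not overlap in 3979 of the 4025 called transcripts, and they did not overlap in 41.4% of all genes tested. A further 2965 genes passed the adjusted p with a smaller change. Of the calls, 1848 (45.9%) held in the same direction under each of 17 other ways of processing the data, which leave out the test against the fold threshold (glmTreat) and the replicate block, 705 of them increased and 1143 decreased.

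**Figure D1:**
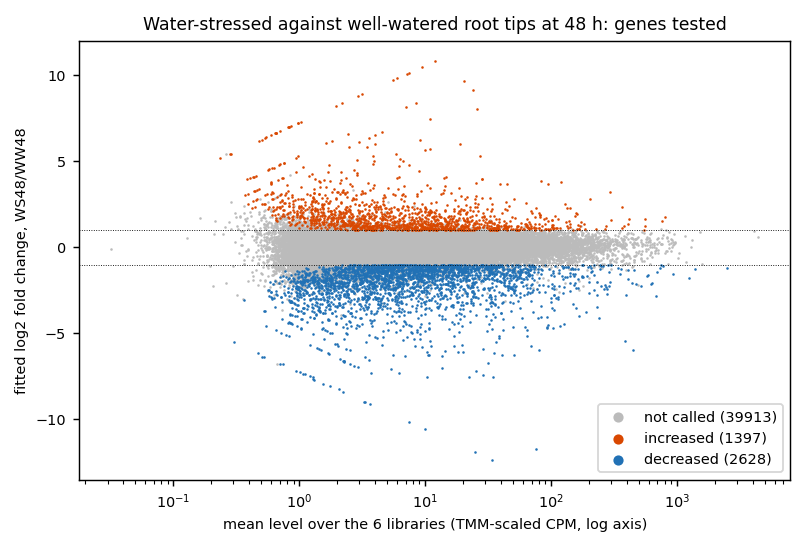
Each point is 1 of the 43938 genes tested, with its mean level over the 6 libraries (TMM-scaled CPM, log axis) across and its fitted log2 fold change in WS48/WW48 upwards, where dotted lines mark a change of 1 in either direction. The 2628 decreased genes outnumber the 1397 increased ones, and the lines of points at the edges are genes with no or nearly no read in 1 group, whose fitted value is no measured size.

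Levels below are TMM-scaled CPM, the read counts of a gene relative to the scaled size of its library, and they are not corrected for gene length. Cotton is a tetraploid with A and D subgenomes, and gene IDs name the subgenome. Among A genes 3.25% increased and 6.07% decreased, and among D genes 3.10% and 5.83%. Near-identical A and D copies can share reads, so a value of 1 copy is uncertain to that extent. For a gene without reads in all 3 libraries of a group, "at least" marks a fold computed against 3 counts in that group. For 1 to 3 reads in a group the ratio stands with its 95% exact interval. Both cover counting error only.

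Functions were known for 1543 of the genes tested, 1283 of which were called. Most of these genes had been picked by the study from these same libraries because they changed, so a list formed from them holds many calls by construction. The counts in each list below describe its members and are no independent evidence of its direction. The study's list required a change in the same direction against WW24 as well as against WW48. Only 196 of the 1543 genes lay outside the study's list. The single increases in the aquaporin, ethylene, glutathione and sulfate lists were each lost without any 1 of 3 or more of the 6 libraries.

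**Figure D2:**
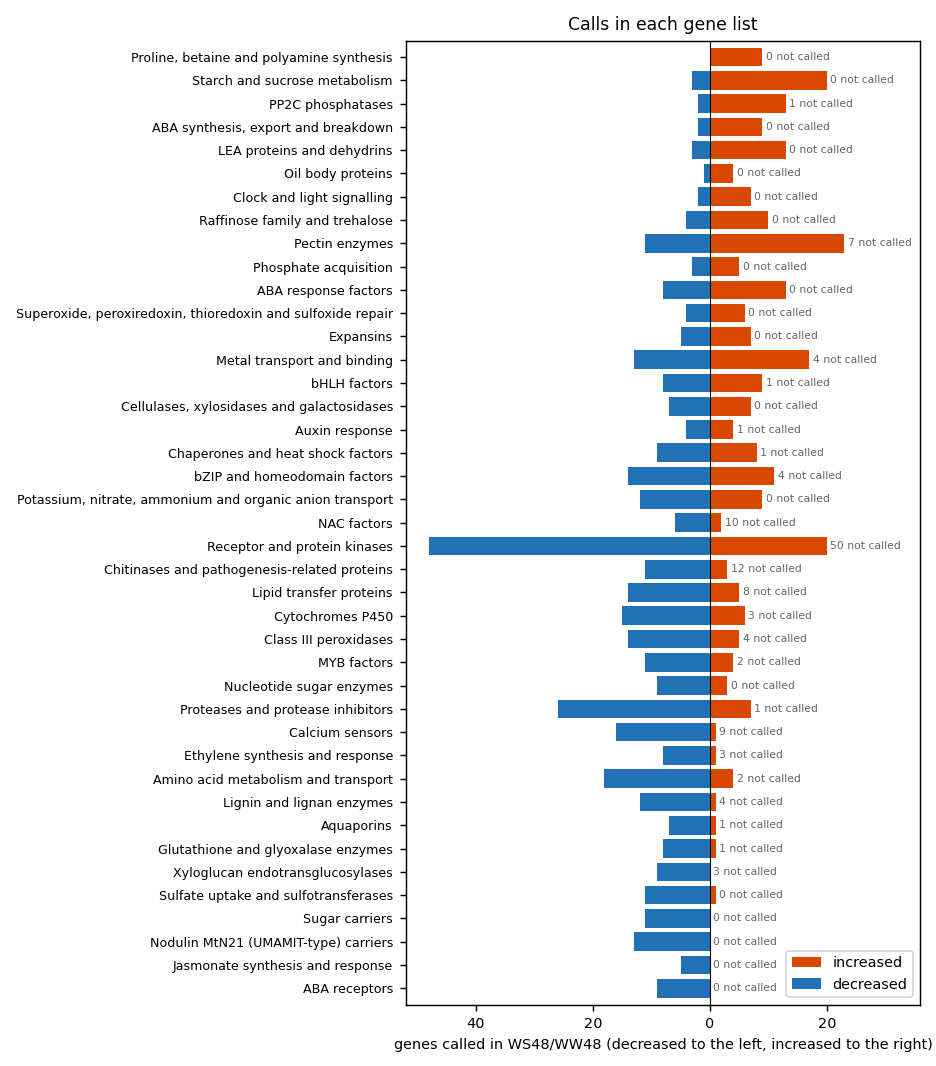
For each list of genes with a given function, bars to the right count the members that increased and bars to the left those that decreased in WS48/WW48, with the number not called in grey. ABA receptors, sugar carriers and nodulin MtN21 carriers hold decreased members only, and proline, betaine and polyamine synthesis holds increased members only. The nucleotide-sugar transporters that were taken out of the sugar carriers after their values were seen had increased. Most members were picked by the study for having changed.

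Among listed genes, transcripts for ABA synthesis and for the phosphatases that restrain ABA signalling were mostly higher in WS48. Those for the listed ABA receptors were lower. Of 11 genes of ABA synthesis, export and breakdown 9 increased and 2 decreased, with a median log2 fold change of 2.60. This list pools synthesis with breakdown, so its count and median are not those of synthesis alone. Nine-cis-epoxycarotenoid dioxygenases cut the carotenoid precursor in the committed step of ABA synthesis. The dioxygenase Gh_D01G0291 stood at 0.309, 0.923 and 0.174 CPM in WW48 and at 4.80, 3.84 and 3.07 CPM in WS48. Every WS48 library was above every WW48 library, with a log2 change of 3.20 (SE 0.60, edgeR adjusted p = 0.00396). A second dioxygenase, Gh_A01G0280, rose from a mean of 0.257 ± 0.322 to one of 3.02 ± 1.79 CPM (SD, n = 3 in each group). CYP707A enzymes inactivate ABA by hydroxylation, and their genes moved both ways. Gh_D07G0979, chosen after its values were seen, stood at 21.7, 9.69 and 21.6 CPM in WW48 and at 135.6, 86.0 and 103.5 CPM in WS48. Its log2 change was 2.60 (SE 0.37, edgeR adjusted p = 0.000788). By contrast, Gh_A08G1344 fell from 31.8, 29.2 and 28.5 CPM to 11.1, 11.3 and 11.1 CPM (log2 fold change −1.42, SE 0.25, edgeR adjusted p = 0.00276), and Gh_D08G1639 fell by 1.59 on the log2 scale. The groups did not overlap in any of these 3 genes.

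All 9 PYR1-like receptor genes with a known function decreased, with a median log2 fold change of −3.15. Each of the 9 came from the study's list of changed genes, so they do not stand for the whole family. Their summed level was 169.9 to 204.2 CPM in the WW48 libraries and 22.5 to 31.6 CPM in the WS48 libraries. PYR1-like 6 (Gh_D06G1764) had 11.5, 12.0 and 13.7 CPM in WW48 and 0, 0 and 0.212 CPM in WS48, where 2 reads were counted in all. It was thus lower by a ratio of 195 (interval 53.4 to 1613, edgeR adjusted p = 7.19e-06). PYR1-like 4 (Gh_A05G2630) was lower by a ratio of 136 (interval 23.9 to 5402), with 1 read in WS48. Of 16 type 2C phosphatase genes, whose products keep the ABA-activated kinases dephosphorylated, 13 increased and 2 decreased (1 decreased without WW48 replicate 1). Protein phosphatase 2CA (Gh_D04G0015) was nearly absent from WW48, at 0.103, 0.308 and 0.174 CPM, and stood at 58.6, 44.9 and 50.9 CPM in WS48. Its log2 fold change of 8.05 (SE 0.30) had an edgeR adjusted p of 8.63e-08. The highly ABA-induced gene Gh_A05G0782 of the same family had 1 read in WW48 and 521 in WS48, a ratio of 465 (interval 83.0 to 18390). The summed level of the 16 genes was 163 to 231.4 CPM in WW48 and 533.4 to 615.8 CPM in WS48.

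Further along the pathway, 13 of 21 genes named for a response to ABA increased and 8 decreased. Genes of a family whose proteins bind the transcription factor ABI5 in Arabidopsis rose, at Gh_D13G0860 from 0.442 ± 0.0853 to 3.79 ± 0.602 CPM and at Gh_A13G0736 from 0.833 ± 0.189 to 5.44 ± 0.811 CPM (log2 fold changes 3.08 and 2.65, edgeR adjusted p = 8.70e-05 and 6.53e-05). Among the decreased members, Gh_D02G1153, related to the transcription factors ABI3 and VP1, fell from 15.4, 33.1 and 13.1 CPM to 1.82, 2.15 and 0.847 CPM. The GRAM domain gene Gh_A12G1208 fell from 17.6 ± 4.33 to 1.92 ± 0.307 CPM (log2 fold change −3.19, edgeR adjusted p = 1.92e-05).

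**Figure D3:**
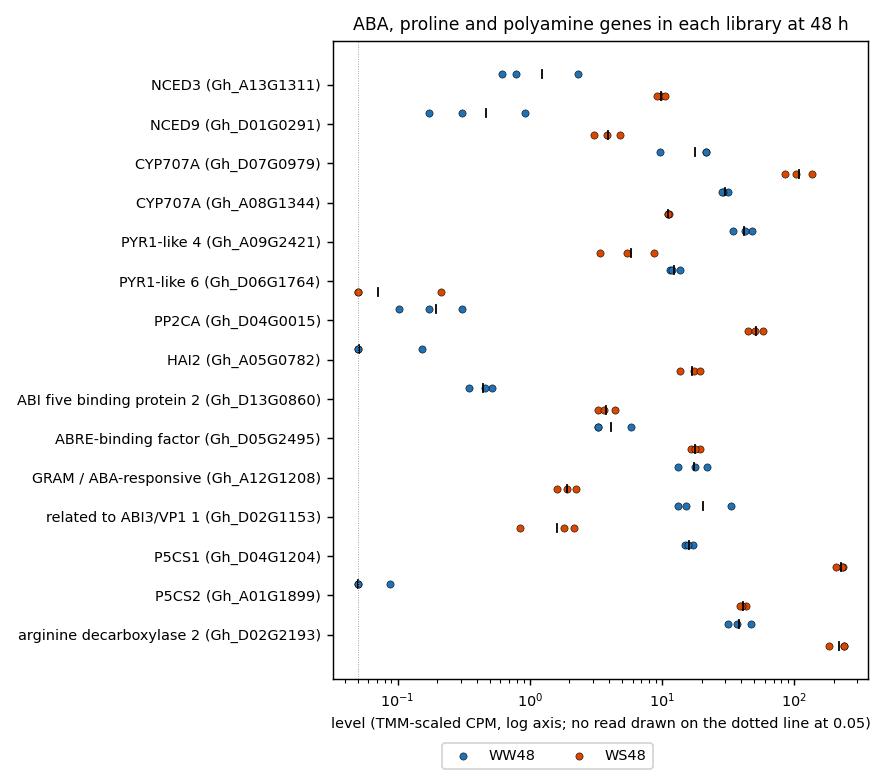
Points are the 3 libraries of WW48 (blue) and of WS48 (orange) for 15 genes of ABA metabolism and signalling, proline and polyamine synthesis, in TMM-scaled CPM on a log axis, and black bars are group means. Libraries with no read are drawn on the dotted line at 0.05. Within each gene the 2 groups do not overlap. Gh_D07G0979 and Gh_A08G1344, both of the CYP707A family, lie in opposite directions. Some of the genes were chosen after their values were seen.

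Among osmolyte genes, each of 9 for proline, betaine and polyamine synthesis or transport increased, with a median log2 fold change of 2.35, and their summed level went from 147.4 to 163.1 CPM in WW48 to 915.1 to 960.6 CPM in WS48. Delta1-pyrroline-5-carboxylate synthase makes the precursor of proline. Its gene Gh_D04G1204 stood at 17.2, 14.9 and 15.7 CPM in WW48 and at 236.4, 230.7 and 207.2 CPM in WS48, a log2 change of 3.82 (SE 0.16, edgeR adjusted p = 2.28e-07). The copy Gh_A04G1396 changed alike, from 10.8, 10.3 and 10.97 CPM to 151.7, 177.1 and 139 CPM. The spread within a group was small beside the difference in both. Another synthase gene, Gh_A01G1899, had 1 read in WW48 and 1267 in WS48, a ratio of 1130 (interval 202 to 44671). Arginine decarboxylase 2 (Gh_D02G2193), which starts polyamine synthesis from arginine and was chosen after its values were seen, rose from 38.6 ± 7.69 to 220.2 ± 32.6 CPM.

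Starch and sucrose enzymes rose in 20 of 23 genes tested and fell in 3 (median log2 fold change 1.64). A glycosyl hydrolase family 32 gene, Gh_A09G1747, of the family of invertases that split sucrose into hexoses, stood at 18.2, 15.1 and 7.57 CPM in WW48 and at 201.5, 149.5 and 175.9 CPM in WS48. This was a log2 fold change of 3.70 (SE 0.43) with an edgeR adjusted p of 0.000190. Beta-amylases release maltose from starch, and their genes went in opposite directions. Beta-amylase 1 (Gh_D09G0578) rose from 0.821 ± 0.0506 to 9.26 ± 0.562 CPM, whereas the chloroplast beta-amylases Gh_D12G2112 and Gh_A12G1931 fell, the first from 16.2 ± 1.46 to 0.288 ± 0.0877 CPM (log2 fold change −5.74, edgeR adjusted p = 6.56e-06) and the second from 3.11 ± 0.976 CPM to no read, at least 34.0-fold lower. Galactinol synthase starts the raffinose family of sugars. Its gene Gh_A09G2130 rose from 0.412, 0.462 and 0.261 CPM to 21.02, 15.7 and 21.6 CPM, and Gh_D09G2336 from 1.92 ± 1.27 to 11.7 ± 3.71 CPM (log2 fold changes 5.69 and 2.70, edgeR adjusted p = 8.98e-06 and 0.00544). In all 10 of 14 raffinose and trehalose genes increased. The 4 that decreased were among the 5 genes named seed imbibition, a family related to raffinose synthases, and the largest fall was at Gh_A12G1687, from 8.55, 34.6 and 12.7 CPM to 0.288, 0.447 and 0.212 CPM.

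Among listed genes, those of dehydrins, related proteins and oil body proteins were mostly higher, and those of chaperones and heat shock factors moved both ways. Genes for dehydrins and other late embryogenesis abundant (LEA) proteins numbered 16, of which 13 increased and 3 decreased (median log2 fold change 1.61). The LEA gene Gh_A01G0507 had 1 read in WW48 and 434 in WS48, a ratio of 387 (interval 69.1 to 15325), and CAP160 (Gh_A12G2329) had none in WW48 and 12.3, 6.62 and 14.6 CPM in WS48, at least 101-fold higher. Of the latter, Gh_D07G1169 and Gh_D08G1255 lost most, Gh_D07G1169 with a fall from 6.09 ± 1.95 to 0.574 ± 0.355 CPM and the other from 4.01 ± 1.57 to 0.866 ± 0.109 CPM. Oleosins coat oil bodies in seeds. Oleosin 1 (Gh_D07G0443) stood at 0.824, 0.308 and 0.522 CPM in WW48 and at 39.1, 30.8 and 41.9 CPM in WS48, a log2 change of 5.99 (SE 0.28, edgeR adjusted p = 4.19e-07). The oleosin Gh_A10G0920 rose as well, from 0.454 ± 0.464 to 14.4 ± 4.03 CPM, and the related caleosin Gh_D09G0573 fell from 12.1 ± 2.42 to 0.852 ± 0.317 CPM. Among 18 genes of chaperones and heat shock factors 8 increased and 9 decreased. Small heat shock protein Gh_A05G1144 rose from 1.03 ± 0.363 to 12.6 ± 4.34 CPM and heat shock protein 70 gene Gh_A13G2046 from 0.396 ± 0.194 to 4.88 ± 0.945 CPM. The DnaJ-type chaperone genes Gh_A06G0385 and Gh_D12G1290 fell, the first from 4.59 ± 1.52 to 0.481 ± 0.174 CPM and the second by a ratio of 75.1 (interval 20.4 to 627).

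Carrier genes for sugars and those of the MtN21 family were lower. All 11 genes kept in the sugar carrier list decreased (median log2 fold change −2.00), from a summed 949.6 to 1158 CPM in WW48 to 304 to 356.8 CPM in WS48. Sucrose-proton symporter 2 loads sucrose into the phloem, and its gene Gh_A02G0626 fell from 142.7, 163.2 and 97.7 CPM to 10.3, 9.12 and 10.2 CPM (log2 fold change −3.77, SE 0.31, edgeR adjusted p = 1.90e-05). The 3 nucleotide-sugar transporter genes that were taken out of this list after their values were seen all increased, Gh_A09G1137 from 7.73 ± 0.979 to 22.03 ± 3.07 CPM, Gh_D09G1142 from 8.295 ± 2.34 to 22.05 ± 2.99 CPM and Gh_D05G0159 from 2.35 ± 0.831 to 5.89 ± 3.29 CPM. The MtN3-type sugar carrier Gh_D12G2692 went from 4.45 ± 1.28 CPM to no read, at least 43.7-fold lower. Members of the nodulin MtN21 family, several of which move amino acids across membranes in Arabidopsis, decreased in 13 of 13 genes with a median of −5.07. Gh_D01G1867 stood at 70.6, 81.8 and 50.7 CPM in WW48 and Gh_A01G1590 at 56.7, 62.8 and 31.1 CPM, and neither had a read in the 3 WS48 libraries. Both genes were thus at least 491-fold lower, the first at least 673-fold.

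Among 9 aquaporin genes 7 decreased and 1 increased, and the summed level fell from 3479 to 4311 CPM in WW48 to 1246 to 1655 CPM in WS48. The delta tonoplast integral protein gene Gh_D03G0583, a water channel of the vacuole, was the most abundant of them. It stood at 1979, 1549 and 2245 CPM in WW48 and at 640.9, 475.3 and 559 CPM in WS48, the largest loss in CPM of any gene with a known function (log2 fold change −1.79, SE 0.19, edgeR adjusted p = 8.70e-05). The plasma membrane channel gene Gh_A08G2559 fell from 79.7 ± 22.4 to 16.1 ± 2.72 CPM and Gh_D12G1974 from 8.57 ± 1.32 to 1.62 ± 0.406 CPM (log2 fold changes −2.31 and −2.40). The more abundant Gh_A01G1406 fell by 1.06 on the log2 scale (SE 0.20, edgeR adjusted p = 0.00368) but was not called without WS48 replicate 2 or WW48 replicate 1, at −0.94 in both.

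Ion carriers divided within families. Of 21 genes for potassium, nitrate, ammonium and organic anion transport 9 increased and 12 decreased. Nitrate transporter 1.1 (Gh_A12G2001), which also senses nitrate in Arabidopsis, rose from 9.07, 5.23 and 8.70 CPM to 60.8, 53.7 and 58.9 CPM (log2 fold change 2.89, SE 0.18, edgeR adjusted p = 4.40e-06). Of the genes named nitrate transporter 1:2, Gh_A13G0448 rose from 5.36 ± 3.12 to 23.2 ± 2.38 CPM and Gh_A05G1715 fell from 6.61 ± 1.89 CPM to no read, at least 69.5-fold. The cation/H+ exchanger gene Gh_A02G1014 fell from 8.88 ± 5.38 to 0.788 ± 0.332 CPM. Of 34 genes of metal transport and binding 17 increased and 13 decreased. Copper transporter 1 (Gh_D03G1150) had no read in WW48 and 13.4, 10.01 and 12.5 CPM in WS48, at least 110-fold higher. ZRT/IRT-like protein 2 (Gh_D05G0913), a zinc and iron carrier family member, rose from 7.93, 5.38 and 5.48 CPM to 87.2, 78.4 and 81.4 CPM. The heavy metal transport/detoxification genes Gh_D06G1722 and Gh_A04G0606 fell, with log2 fold changes of −4.72 and −4.65 (edgeR adjusted p = 0.00147 and 6.57e-05), the first from 263.7, 144 and 196.7 CPM to 5.76, 8.40 and 8.68 CPM.

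For phosphate, purple acid phosphatase 10 (Gh_A06G1838), a secreted enzyme that frees phosphate from organic compounds, rose from 1.75, 2.31 and 1.57 CPM to 23.3, 16.5 and 20.3 CPM (log2 fold change 3.44, SE 0.28, edgeR adjusted p = 1.59e-05). The SPX carrier gene Gh_A12G0944 rose from 0.270 ± 0.241 to 4.47 ± 0.551 CPM. In contrast, both genes named phosphate 1, an exporter that loads phosphate into the xylem in Arabidopsis, fell, Gh_A10G0984 from 20.6 ± 11.6 to 2.84 ± 0.393 CPM and Gh_D10G1565 from 10.1 ± 3.69 to 2.00 ± 0.0271 CPM. The list of 8 held 5 increases and 3 decreases. Of 12 genes for sulfate uptake and sulfotransferases 11 decreased and 1 increased, and 7 decreased without WS48 replicate 3 or WW48 replicate 1. Sulfate transporter 3;1 (Gh_D12G0026) fell from 26.1, 35.8 and 26.2 CPM to 4.03, 1.79 and 2.22 CPM (log2 fold change −3.44, edgeR adjusted p = 3.53e-05). Sulfotransferase 16 (Gh_D03G0384), which sulfates glucosinolate precursors in Arabidopsis, fell from 12.7 ± 4.09 to 1.29 ± 0.215 CPM.

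Cell wall genes moved both ways, within most enzyme classes as well. Expansins loosen the wall without cutting it, and 7 of 12 increased and 5 decreased (3 decreased without WS48 replicate 3). The expansin-like B1 genes Gh_D03G1609 and Gh_A03G0046 had no read in WW48. In WS48 the first stood at 24.0, 17.2 and 31.1 CPM and the second at 21.02, 15.02 and 20.97 CPM, at least 219-fold and 174-fold higher. Expansin-like A1 (Gh_A03G2186) fell from 9.69, 35.7 and 9.57 CPM to 0.864, 1.97 and 1.59 CPM. Xyloglucan endotransglucosylases cut and rejoin the glucans that tether cellulose, and 9 of 12 genes decreased and 3 did not pass. The most abundant, Gh_A02G1729, stood at 1086, 908 and 658.3 CPM in WW48 and at 287, 256.6 and 286 CPM in WS48, a log2 change of −1.68 (SE 0.39, edgeR adjusted p = 0.0135). That call was lost without WS48 replicate 1 or 3, though the change stayed at −1.70. Pectin enzymes increased in 23 and decreased in 11 of 41 genes. Outside the study's list, 2 of 8 increased and 0 decreased. Pectate lyase Gh_D12G1856 rose from 1.62 ± 0.498 to 11.2 ± 1.47 CPM and pectinesterase 11 (Gh_D07G1162) from 0.481 ± 0.261 to 4.15 ± 1.16 CPM. Pectin methylesterase 3 (Gh_A05G1180), far more abundant, fell from 848.5, 768.6 and 1047 CPM to 321, 268.6 and 286 CPM (log2 fold change −1.61, edgeR adjusted p = 8.70e-05). Cellulases, xylosidases and galactosidases were even, with 7 increases and 7 decreases, the latter 4 without WS48 replicate 3. Glycosyl hydrolase 9B8 (Gh_D07G0837), of the cellulase family, rose from 1.11 ± 0.300 to 4.91 ± 0.904 CPM, and beta-xylosidase 1 (Gh_D09G2276) fell from 18.2 ± 9.79 to 2.42 ± 0.522 CPM.

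Enzymes that supply nucleotide sugars for wall polymers decreased in 9 of 12 genes. Myo-inositol oxygenase opens the inositol ring towards glucuronic acid, and its genes Gh_D03G1637 and Gh_Sca004857G03 were all but lost. The first fell from 25.8, 28.9 and 25.7 CPM to 0.0960, 0.179 and 0.318 CPM (log2 fold change −7.02, SE 0.49, edgeR adjusted p = 7.19e-06), and the second from 6.51 ± 0.772 CPM to no read, at least 68.0-fold. Reversibly glycosylated polypeptide 1 rose at Gh_D07G0782 from 38.2 ± 4.92 to 97.5 ± 6.93 CPM. Lipid transfer proteins carry lipids to the surface wall layers, and 5 of 27 genes increased and 14 decreased (8 increased without WW48 replicate 1). Outside the study's list, 1 of 8 increased and 0 decreased. Gh_D01G1342 had no read in WW48 and 18.1, 8.76 and 17.7 CPM in WS48, at least 135-fold higher. Gh_A11G0236 and Gh_D11G0251 fell from 244 ± 77.3 to 11.3 ± 1.91 CPM and from 157.9 ± 52.2 to 9.503 ± 1.002 CPM. Gh_D11G0247, at 354.7, 265.8 and 375.7 CPM in WW48 and 861.7, 697.3 and 799.1 CPM in WS48, rose by 1.24 on the log2 scale (edgeR adjusted p = 0.00142).

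Lignin and lignan enzymes decreased in 12 of 17 genes and increased in 1. The decreases numbered 6 without WS48 replicate 1 or 3 and 7 without WW48 replicate 1. Laccases join lignin monomers in the walls of xylem vessels, and the laccase 14 gene Gh_A05G2114 stood at 315.4, 412.2 and 221.9 CPM in WW48 and at 13.7, 31.1 and 13.6 CPM in WS48 (log2 fold change −4.02, SE 0.60, edgeR adjusted p = 0.00104). Another laccase 14 gene, Gh_D05G2355, went from 283.4, 544.5 and 226.5 CPM to 10.3, 51.1 and 15.4 CPM. WS48 replicate 2 was the highest of its group in both, and the groups stayed apart. The increased member, Gh_D05G0541, encodes a hydroxycinnamoyl transferase of the same pathway and rose from 3.76 ± 0.221 to 16.3 ± 5.37 CPM.

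Markers of tissues that a root tip can hold were counted in the same way. Every marker came from the study's list of changed genes, so these counts and sums are no unselected measure of tissue content. Of 12 xylem and secondary wall markers, 9 of them laccases shared with the lignin list, 7 decreased and none increased, and 12 decreased in a model of the 6 libraries alone, with the exact test or without WW24 replicate 2. Their summed level was 772.9 to 1459 CPM in the WW48 libraries and 99.2 to 164.9 CPM in the WS48 libraries. All 7 phloem markers decreased, from a summed 304.4 to 424.6 CPM to 40.4 to 42.0 CPM. They include phloem protein 2-A12 (Gh_A05G2423), with 4.02, 4.77 and 1.74 CPM in WW48 and no read in WS48, and both genes of sucrose-proton symporter 2 that are also counted as sugar carriers. Of 5 root hair markers 3 increased, all of them genes for the RHD SIX-LIKE 1 factor, and their summed level, set mainly by a root hair specific gene that was not called, was 254.6 to 414.6 CPM in WW48 and 159.8 to 207.3 CPM in WS48. The other 2 root hair markers decreased with DESeq2, the exact test, the likelihood-ratio test, the 6 libraries alone or without WW24 replicate 2. Of 7 markers of dividing cells 4 increased and 2 decreased. Without WS48 replicate 1 or WW48 replicate 1 these counts were 2 and 0, and without WS48 replicate 2 or WW48 replicate 2 also 2 increased (1 decreased without WS48 replicate 3 or WW48 replicate 2). The summed level of the 7 was 88.3 to 117.6 CPM in WW48 and 78.6 to 85.0 CPM in WS48. No defining marker of the latter lists was at 0 in every library of a group. Photosynthetic plastid markers, which should be low in roots grown in the dark, summed to 26.6 to 37.5 CPM in WW48 and 10.82 to 14.97 CPM in WS48, with 3 increases and 2 decreases among 5 genes (1 decrease with limma-voom and without WS48 replicate 2 or 3 or any 1 WW48 library). The part of these markers in the differences for sugar carriers, lignin enzymes, sulfate and the MtN21 family was not tested.

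**Figure D4:**
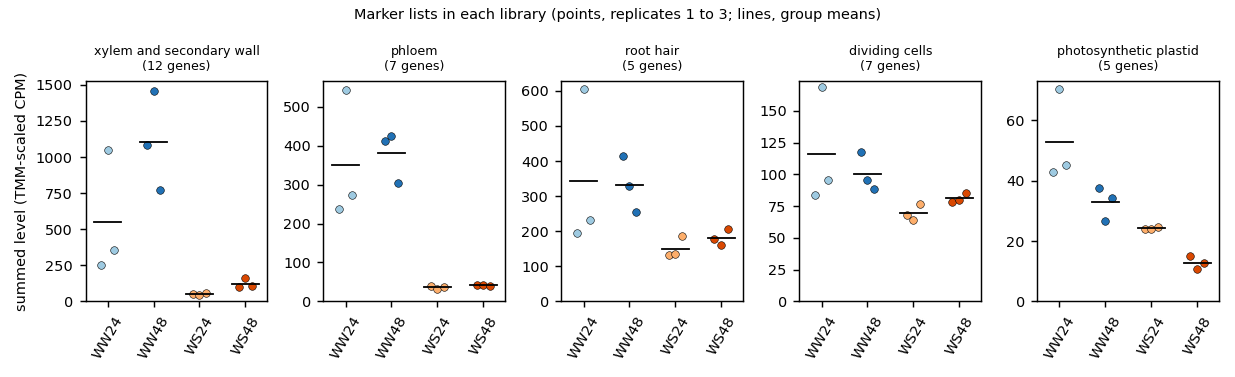
Each panel sums the TMM-scaled CPM of 1 marker list in each of the 12 libraries, with points for replicates 1 to 3 and lines for group means. Xylem and phloem markers sit between 772.9 and 1459 CPM and between 304.4 and 424.6 CPM in WW48, above every WS48 library. WW24 replicate 2, at 1051 CPM for xylem, stands above its own group. Every marker came from the study's list of changed genes.

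Glutathione S-transferase TAU 8 genes, which conjugate glutathione to other compounds, were among the most abundant that decreased. Gh_D09G1520 stood at 951.5, 1339 and 726 CPM in WW48 and at 152.3, 386 and 146.8 CPM in WS48, and Gh_A09G1509 at 642.8, 1282 and 636.1 CPM and at 70.6, 411.5 and 64.9 CPM. Replicate 2 was the highest of each group in both genes. The log2 fold changes were −2.14 (SE 0.56, edgeR adjusted p = 0.0230) and −2.23 (SE 0.70, edgeR adjusted p = 0.0488), and neither was called without WS48 replicate 1 or 3 or WW48 replicate 2, when they lay between −1.91 and −1.81. Gh_A09G1509 was also lost without WW48 replicate 1 or 3, at −2.35 and −2.40, with DESeq2 and with another scaling. Of 10 glutathione and glyoxalase genes 8 decreased and 1 increased, and 5 decreased without any of the same 3 libraries. The glyoxalase I family genes Gh_D10G0875 and Gh_A10G0878, of the enzyme that detoxifies methylglyoxal, had 2 reads each in WS48 and were lower by ratios of 48.8 (interval 13.1 to 409) and 30.8 (interval 8.14 to 261). Among 10 superoxide, peroxiredoxin, thioredoxin and sulfoxide repair genes, 6 increased and 4 decreased. Fe superoxide dismutase 2 (Gh_D07G0457), which converts superoxide in plastids, rose from 4.43, 4.46 and 6.01 CPM to 35.9, 41.8 and 36.8 CPM (log2 fold change 2.93, SE 0.23, edgeR adjusted p = 1.23e-05).

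Class III peroxidases, secreted enzymes that act on wall phenolics and peroxide, changed in both directions. Of 23 genes 14 decreased and 5 increased. Gh_A04G1453 fell from 68.0, 85.8 and 52.4 CPM to 0.288, 0.536 and 0.212 CPM, and Gh_D04G1593 from 69.7 ± 25.3 to 0.965 ± 0.653 CPM (log2 fold changes −7.55 and −6.12, edgeR adjusted p = 6.60e-05 and 0.000120). Gh_A10G1627 rose from 3.71, 4.15 and 2.35 CPM to 60.8, 43.2 and 54.8 CPM, and Gh_A12G2370 from 2.31 ± 1.07 to 26.6 ± 2.03 CPM (log2 fold changes 3.99 and 3.58).

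Of the other hormone lists, those for ethylene and jasmonate held mostly decreases. Every member of these lists and of the auxin list came from the study's list of changed genes. Over all genes tested 5.98% decreased and 3.18% increased. ACC synthase makes the precursor of ethylene, and Gh_D11G0221 fell from 50.9, 40.9 and 16.01 CPM to 2.40, 2.15 and 2.86 CPM and Gh_A11G0207 from 16.5 ± 8.32 to 0.933 ± 0.0622 CPM (log2 fold changes −3.86 and −4.12, edgeR adjusted p = 0.00205 and 0.00608). In all 8 of 12 ethylene genes decreased and 1 increased. All 5 jasmonate genes decreased (3 without WS48 replicate 1 or 3), among them jasmonate-zim-domain protein 6 (Gh_D10G0531), a repressor of jasmonate responses, from 63.7 ± 6.19 to 15.95 ± 2.17 CPM, and oxophytodienoate-reductase 3 (Gh_D05G0339), a synthesis enzyme, from 33.1 ± 2.65 to 10.7 ± 0.648 CPM. Auxin genes were even, with 4 increases and 4 decreases among 9. GH3 enzymes attach amino acids to auxin and to related acids, and Gh_A03G1429 rose from 3.22 ± 0.794 to 16.8 ± 1.34 CPM while Gh_D11G2945 fell from 34.4, 20.9 and 15.8 CPM to 2.50, 1.79 and 2.44 CPM.

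Amino acid metabolism and transport genes decreased in 18 of 24 cases and increased in 4. Branched-chain amino acid transaminase 2 starts the breakdown of leucine, isoleucine and valine. Its gene Gh_D05G2515 stood at 12.0, 117.8 and 40.6 CPM in WW48 and at 0.384, 0.536 and 0 CPM in WS48, a log2 change of −7.40 (SE 1.02, edgeR adjusted p = 0.000628). Alanine:glyoxylate aminotransferase Gh_A05G0586 fell from 17.0, 44.2 and 20.3 CPM to 0.192, 0.447 and 0.318 CPM. WW48 replicate 2 was the highest library in both, and the other 2 stayed far above WS48. The amino acid carrier genes Gh_D07G1802 and Gh_D09G1548 rose from 8.92 ± 1.77 to 38.9 ± 5.20 CPM and from 8.47 ± 1.33 to 24.2 ± 1.67 CPM.

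Regulators were split. Basic helix-loop-helix genes increased in 9 and decreased in 8 of 18 (4 decreased without WS48 replicate 1, and 5 without WS48 replicate 3 or WW48 replicate 1), with Gh_A11G0909 up from 0.669 ± 0.503 to 5.005 ± 0.790 CPM and Gh_D12G0591 down from 10.99 ± 2.16 to 2.08 ± 0.166 CPM. Of 17 MYB genes 11 decreased and 4 increased, and 6 or 7 decreased without WS48 replicate 1 or 3 or WW48 replicate 3. Without WS48 replicate 1, 2 increased. MYB-like 102 (Gh_Sca004734G04) rose from 0.276 ± 0.130 to 3.96 ± 0.819 CPM (log2 fold change 3.72, edgeR adjusted p = 6.25e-05), and myb domain protein 48 (Gh_D13G2393) fell from 7.21, 24.8 and 6.96 CPM to 0.384, 0.179 and 0.318 CPM. Among 29 bZIP and homeodomain genes 11 increased (5 without WW48 replicate 3, and 7 without WS48 replicate 1 or WW48 replicate 1) and 14 decreased. The bZIP gene Gh_A11G2244 fell from 30.5, 48.6 and 36.5 CPM to 2.69, 1.97 and 2.65 CPM (log2 fold change −3.98, SE 0.31, edgeR adjusted p = 1.25e-05), and BEL1-like homeodomain 1 (Gh_A09G0940) rose from 3.16 ± 1.54 to 18.9 ± 2.57 CPM.

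Some NAC genes varied widely within WW48. The NAC-like gene Gh_D02G1270, chosen after its values were seen, stood at 2.68, 41.4 and 10.3 CPM in WW48 and at 1.73, 2.06 and 2.33 CPM in WS48. Its log2 change of −3.12 (SE 0.81, edgeR adjusted p = 0.0216) was not called without WW48 replicate 2 or any single WS48 library. Gh_D12G2767, of the same name, fell from 4.22, 8.15 and 5.05 CPM to 0.288, 1.43 and 0.424 CPM and kept its call under the alternatives. Outside the study's list, 4 of 14 NAC genes decreased and 0 increased. Of all 18 NAC genes 6 decreased and 2 increased. The decreases numbered 2 without WS48 replicate 1 or 3 and 3 with limma-voom, and the increases 0 without WS48 replicate 1 or WW48 replicate 2 and 1 without replicate 3 of either group.

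Of 118 receptor and protein kinase genes, which relay signals by phosphorylation, 20 increased and 48 decreased. Among the 50 outside the study's list 0 increased and 4 decreased, against 3.18% and 5.98% of all genes tested. The proline-rich extensin-like receptor kinase 4 gene Gh_A11G1708 rose from 0.235 ± 0.128 to 5.21 ± 1.56 CPM, and the leucine-rich repeat kinase gene Gh_A05G0844 fell from 11.6, 12.0 and 10.3 CPM to 0.288, 0.536 and 0.212 CPM (log2 fold changes 4.49 and −4.95, edgeR adjusted p = 0.000508 and 8.00e-06). Calcium sensors decreased in 16 of 26 genes and increased in 1, and the decreases numbered 10 without WS48 replicate 1. Outside the study's list, 1 of 9 calcium sensors decreased and 0 increased. CBL-interacting protein kinase 9 (Gh_A11G0911), which regulates potassium transport in Arabidopsis, fell from 30.6 ± 9.04 to 4.33 ± 0.919 CPM. CBL-interacting protein kinase 25 (Gh_D06G1080) was the increased member, from 5.15 ± 0.964 to 13.7 ± 2.64 CPM.

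Defence proteins and proteases moved both ways. Chitinase A (Gh_D08G1052), which degrades the chitin of fungal walls, stood at 65.6, 56.0 and 48.7 CPM in WW48 and at 584.6, 464.5 and 548.4 CPM in WS48, the largest gain in CPM of a gene with a known function (log2 fold change 3.23, SE 0.29, edgeR adjusted p = 3.01e-05). Its copy Gh_A08G0872 rose from 12.1 ± 0.690 to 75.8 ± 2.34 CPM. Basic chitinase (Gh_D02G2286) went the other way, from 11.1, 17.4 and 16.1 CPM to no read, at least 152-fold lower. Of the 26 chitinase and pathogenesis-related genes 3 increased and 11 decreased. Outside the study's list, 0 of 8 increased and 0 decreased. The Kunitz protease inhibitor gene Gh_D10G2219 had 2 reads in WW48 and 80.9, 17.7 and 46.4 CPM in WS48, a ratio of 660 (interval 182 to 5452), and its neighbour by ID, Gh_D10G2220, had no read in WW48 and 7.77, 2.68 and 6.99 CPM in WS48, at least 52.6-fold higher. WS48 replicate 2 was the lowest of its group in both. Of 34 genes of proteases and their inhibitors, these included, 7 increased and 26 decreased, and 4 increased without WS48 replicate 1. Aspartyl protease gene Gh_D06G1104 fell from 13.8 ± 3.95 to 0.162 ± 0.0597 CPM (log2 fold change −6.30, edgeR adjusted p = 4.54e-05). Cytochromes P450, oxidases of many small molecules, decreased in 15 and increased in 6 of 24 genes, and the CYP76G gene Gh_A11G2871 fell from 67.9, 27.2 and 38.6 CPM to 0.0960, 0.447 and 0.106 CPM.

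Clock and light signalling genes rose in 7 and fell in 2 of 9 cases (1 fell without WS48 replicate 1 or 3 or WW48 replicate 1 or 2), although all roots grew in the dark. EID1-like 3 (Gh_D12G0051) rose from 5.26, 6.77 and 5.83 CPM to 29.4, 27.3 and 26.7 CPM (log2 fold change 2.23, SE 0.28, edgeR adjusted p = 0.000328). CONSTANS-like 5 (Gh_D08G0269) rose from 0.819 ± 0.356 to 3.92 ± 1.48 CPM, and PAS/LOV protein B (Gh_A03G0854), related to blue light receptors, fell from 24.8 ± 2.95 to 7.01 ± 0.301 CPM.

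Measured in CPM rather than in fold, the aluminium induced protein genes Gh_A10G0238 and Gh_D10G0217 followed the tonoplast channel among the losses. Gh_A10G0238 stood at 762.8, 1090 and 786 CPM in WW48 and at 14.2, 14.8 and 13.6 CPM in WS48, and Gh_D10G0217 at 663.7, 905.5 and 682.6 CPM and at 18.8, 17.0 and 15.7 CPM. The log2 fold changes were −5.95 (SE 0.32, edgeR adjusted p = 1.46e-06) and −5.45 (SE 0.31, edgeR adjusted p = 2.18e-06), and the libraries of a group lay close together. Among the gains, tubulin beta 8, a subunit of microtubules, rose at Gh_D03G1454 from 52.0, 40.6 and 52.1 CPM to 253.7, 206 and 250.8 CPM and at Gh_A03G0127 from 62.0 ± 6.51 to 252.4 ± 33.0 CPM (log2 fold changes 2.29 and 2.02, edgeR adjusted p = 6.36e-06 and 8.98e-06). The major facilitator gene Gh_A08G0736, a membrane carrier, rose from 37.2, 89.1 and 24.3 CPM to 369.6, 332.1 and 362.7 CPM.

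Genes with no known function include Gh_A03G1042, Gh_A06G1374 and Gh_D06G1716. Gh_A03G1042 stood at 103.5, 311.7 and 43.7 CPM in WW48 and had 1 read in the 3 WS48 libraries, a ratio of 3960 (interval 710 to 156450). WW48 replicate 2 was the highest, and the lowest WW48 library was still far above WS48. Gh_A06G1374 and Gh_D06G1716 had no read in WW48 and were at least 39.2-fold and 36-fold higher in WS48, at 4.36 ± 2.04 and 3.94 ± 2.28 CPM. In all 30 increased transcripts had no read in WW48 and 25 decreased transcripts none in WS48.

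Roots stressed for 24 h shared part of these calls. In WS24/WW24, which uses other libraries, 1647 transcripts (3.75%) increased and 2165 (4.93%) decreased. Of the transcripts increased at 48 h 823 were also increased at 24 h, which is 58.9% of the 48 h list and 50.0% of the 24 h list, and 1 was decreased. Of those decreased at 48 h 1123 were also decreased at 24 h, 42.7% and 51.9% of the lists, and 2 were increased. A call at 48 h without one at 24 h does not show that the effects differ. A test of the 48 h effect of stress against the 24 h effect passed for 0 genes with edgeR (lowest adjusted p 0.0664), 5160 genes had an unadjusted p under 0.05, and 698 genes passed with DESeq2, 0 with limma-voom and 3 in edgeR without WW48 replicate 1.

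Several genes with a large fall at 48 h had lower means in WW24 than in WW48, and the means of the 4 groups are set side by side here without a test. Gh_D05G2515, the branched-chain transaminase, had means of 1.65 CPM in WW24, 56.8 in WW48, 0.199 in WS24 and 0.307 in WS48. The TAU 8 transferase Gh_D09G1520 had means of 124.8 CPM in WW24, 1006 in WW48, 66.1 in WS24 and 228.4 in WS48. Gh_A10G0238, the aluminium induced protein, had 342.3, 879.7, 18.01 and 14.2 CPM in the same order, and the stressed groups lay close to each other. The heavy metal gene Gh_D06G1722 had 26.3, 201.5, 0.713 and 7.62 CPM. Other genes had like means in the well-watered groups. Delta1-pyrroline-5-carboxylate synthase Gh_D04G1204 had means of 23.0 and 15.9 CPM in the well-watered groups at 24 h and 48 h and of 294 and 224.8 CPM in the stressed groups. The tonoplast channel Gh_D03G0583 had 2940 and 1925 CPM in the well-watered and 839.2 and 558.4 CPM in the stressed groups.

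**Figure D5:**
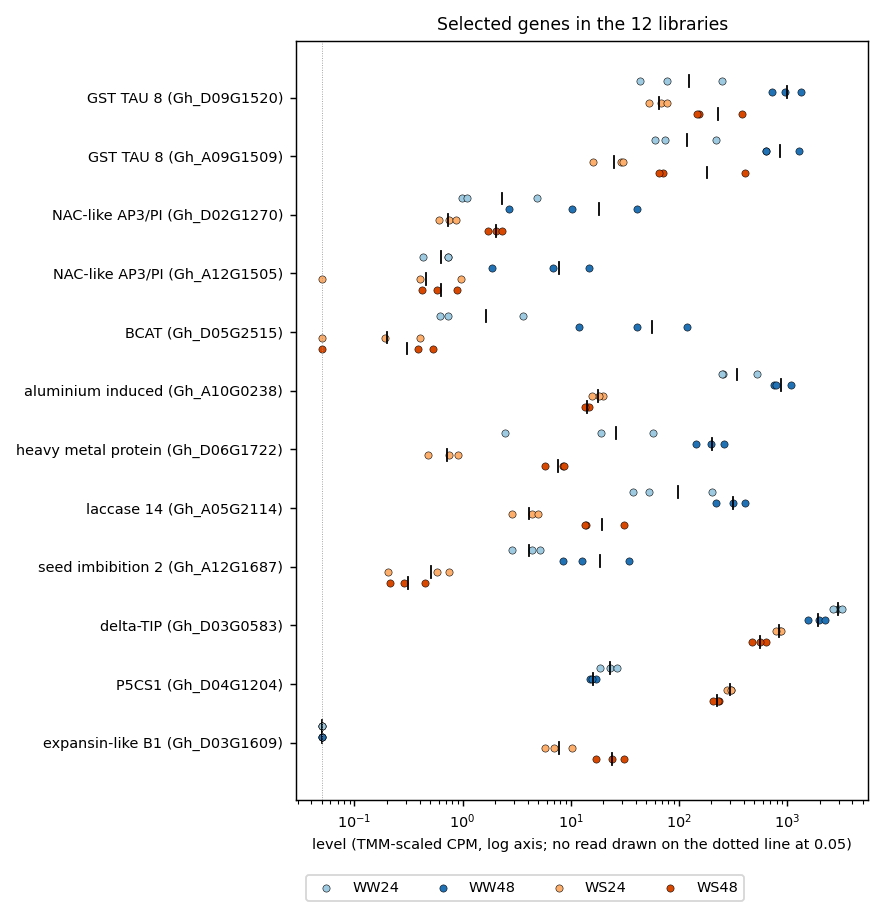
Points are single libraries of WW24, WW48, WS24 and WS48 for 12 genes (TMM-scaled CPM, log axis), with black bars at the group means and libraries without a read on the dotted line at 0.05. For the transaminase Gh_D05G2515 the WW48 libraries, at 12.0 to 117.8 CPM, lie above all other groups, whereas for Gh_D04G1204 and Gh_D03G0583 the 2 well-watered groups lie near each other. The genes were chosen after their values were seen.

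The study also listed genes by ortholog group, and most members of the larger groups are not in its list of changed genes, whereas several groups hold a single gene that is. Only the groups numbered OG0000000 to OG0000130 were used here. The paper reports many more groups, so the shares below do not stand for all of them. In the 52 groups used 449 genes are listed, of which 234 were tested, 41 of them in the study's list. Of these 234 genes 17 increased (7.26%) and 49 decreased (20.9%), 28.2% in all, against 3.18%, 5.98% and 9.16% of all genes tested. Their median log2 fold change was −0.45, against −0.007 over all genes. These groups were listed for holding transcripts that the study called changed in cotton or maize. A higher share of calls follows in part from that choice. The share among the tested genes outside the study's list was not computed. In the phloem protein 2-B group 0 of 14 tested genes were called (median −0.24), and its most abundant member, Gh_D04G0264, stood at 32.4, 41.1 and 33.9 CPM in WW48 and at 33.1, 39.6 and 32.5 CPM in WS48. A group of 8 AT-hook DNA-binding genes had no call but a median of −0.69, and a group of 8 protein kinase genes had none with a median of 0.03. Of 15 thaumatin-like genes, a family of pathogenesis-related proteins, 3 decreased and 12 did not pass. Of 10 O-methyltransferase genes 5 decreased and 1 increased, and the most abundant, Gh_A03G1391, fell from 157, 206.6 and 125.2 CPM to 63.2, 84.0 and 52.2 CPM (log2 fold change −1.29, SE 0.26, edgeR adjusted p = 0.00618). Of 14 lipid transfer proteins in a single group 6 decreased and 1 increased, and its most abundant member, Gh_A11G0233, stood at 623.4, 409.2 and 604.8 CPM in WW48 and at 1230, 953 and 1075 CPM in WS48 (log2 fold change 0.99, edgeR adjusted p = 0.00445), just under the fold needed for a call.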

How the data were processed

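RNA from 12 cotton root tip samples was sequenced from poly(A)-selected, strand-specific libraries. The submitters' processing notes name HISAT2 1.0 and HTSeq 0.6.1, and the paper names the upland cotton genome of NAU-NBT. The authors deposited whole-number read counts for 70477 genes, which were used as deposited, and normalized values rounded to whole numbers (a score made by the authors with edgeR and TMM), which were not used in any test. The sources used here do not say if HTSeq counted by strand, so antisense reads may have entered a gene's count. Lines that name no gene were left out. They held 16.9% to 19.1% of reads (outside genes), 13.3% to 20.6% (not aligned) and 0.158% to 0.205% (ambiguous). Columns of no sample numbered 0.

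Tests used edgeR 4.0.16 under R 4.3.3. Its low-count filter (minimum count 10, total 15) left 43938 genes. TMM scaling, a prior count of 0.125 and 1 quasi-likelihood model of the 12 libraries with group means were used, and WS48 was contrasted with WW48. The SE of a log2 change was worked back from that test, as the size of the change divided by the square root of the F statistic. The numbers of the replicates were not used to pair libraries. No 2 libraries of a group agreed within sampling noise (the lowest chi-square per degree of freedom was 2.09).

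Alternatives were DESeq2 1.42.0, limma-voom (limma 3.58.1), other edgeR tests, scalings, filters and thresholds, the 6 libraries alone, and leaving out 1 library at a time, and the 17 of them other than glmTreat and the replicate block define a call that held throughout. Gene functions come from the study's gene tables, words only, and the gene table of the reference matched 0 of the IDs, so no sequences or positions are given. The comparison and the lists were chosen with earlier results of these data known, and 3 nucleotide-sugar transporters were taken out of the sugar carriers after values were seen. Named are, per list, the pair of largest rises and the pair of largest falls that held throughout with at least 1 CPM in a group, the 8 genes with a function that gained and the 8 that lost most CPM, the most abundant member of each ortholog group with at least 8 members tested, and 2 genes without a function each way. Part of these are given as counts, and other genes are marked as chosen after their values were seen.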

Additional observations from a re-analysis of the deposited data

How the results depend on the processing

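Of the values of single named genes recomputed under the alternatives, 3246 kept their direction and side of the threshold, 46 lost the call, 14 gained one and 0 reversed. Most named genes were chosen because their calls held under 17 of these alternatives, so these counts follow largely from that choice. Among all calls only 1848 (45.9%) held under the 17. At an adjusted p of 0.01, 862 transcripts increased and 1301 decreased, and with a test against the fold threshold itself (glmTreat) 340 and 614. Leaving out 1 of the 6 libraries gave 1023 to 1322 increases and 1580 to 2568 decreases, the lowest without WS48 replicate 3 (1580), WW48 replicate 2 (1581) or WS48 replicate 1 (1588). The cause was not tested. DESeq2 gave 1505 and 3040, limma-voom 1397 and 2700, the exact test 1577 and 3477, the 6 libraries alone 1500 and 3169, the model without WW24 replicate 2 1814 and 3650, and library size in place of TMM 1504 and 2623, with a median log2 fold change of all genes of 0.027. The difference between the effects at 48 h and 24 h passed for 698 genes with DESeq2 and for 0 to 3 when 1 library was left out. With the replicate block 1425 increased and 2969 decreased. Same-numbered libraries of WW48 and WS48 deviated together with r = 0.255, 0.236 and 0.00347 across genes. For libraries with unlike numbers r lay between −0.338 and 0.202. So few libraries cannot decide whether the numbers pair the samples. With 3 libraries a group, changes near the fold threshold are limited by the spread between libraries and those of genes with few reads by counting error.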
